A study of Mus musculus with 25 samples.

Results

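Replication-dependent histone genes encode the linker histone H1 and the core histones H2A, H2B, H3 and H4 that package newly made DNA. In a table of 55450 mouse genes, 69 rows carried a symbol beginning with Hist1h, Hist2h, Hist3h or Hist4h and no pseudogene suffix, and these are described here. They comprised 6 H1, 20 H2A, 18 H2B, 12 H3 and 13 H4 genes. In the GENCODE annotation of GRCm38, 56 lie in the group named Hist1 on chromosome 13, 10 in Hist2 on chromosome 3, 2 in Hist3 on chromosome 11 and 1 in Hist4 on chromosome 6. Of the 69, 67 are annotated as protein-coding, and Hist1h2aj and Hist1h2al are annotated pseudogenes.

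Levels were measured by bulk RNA sequencing of 25 tumours grown from the mouse melanoma line B2905 (M4) in C57BL/6 mice, which were treated from an average tumour size of 75 mm3. The mice of the 5 controls were given the isotype antibody IgG2b. Those of the other 20 tumours were given anti-CTLA-4, which blocks an inhibitory receptor of T cells, with both antibodies at 10 mg/kg on 1 schedule. The 6 non-responders kept growing, the 6 stable tumours held their size and the 8 responders shrank, as judged 10 to 11 days after the last dose. All groups share the implanted line, and the labels used here state neither age nor sex for the mice.

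Most messenger RNAs end in a poly(A) tail. Replication-dependent histone transcripts instead end just after a short stem-loop, which the stem-loop binding protein Slbp holds during processing, translation and decay, and they accumulate while DNA is being copied. The transcription factor Npat drives these genes together at that stage of the cell cycle. Mki67, which encodes a nuclear protein of cycling cells and has an ordinary poly(A) tail, served as the comparison.

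The stem-loop itself is shown for 5 members whose levels are described below, because it is the feature that sets these transcripts apart. Sequences are from GENCODE transcripts of GRCm38, read 5′ to 3′ on the gene's strand, with the stem-loop in capitals and 5 annotated bases on each side. Each member shown is a single exon, and the element lies in its 3′ untranslated part.
Hist1h1c, chr13:23739512-23739527, plus strand: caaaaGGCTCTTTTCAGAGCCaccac
Hist1h4h, chr13:23531458-23531473, plus strand: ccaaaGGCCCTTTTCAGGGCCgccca
Hist1h2bk, chr13:22036300-22036315, plus strand: ccaaaGGCTCTTTTAAGAGCCactaa
Hist1h3g, chr13:23535889-23535904, plus strand: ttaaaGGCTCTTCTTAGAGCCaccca
Hist2h2ac, chr3:96220418-96220433, minus strand: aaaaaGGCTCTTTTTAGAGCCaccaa
The pattern searched, on the sense strand, was a stem of 6 pairs that begins with GG and ends with CC, has a T and an A as its innermost pair and closes a loop of 4 bases starting with T. It was sought in the first 150 annotated bases after the stop codon, and the pattern was loosened to this form after the sequences had been seen. It was present in 46 of the 52 members with bases to search and in 10 of 21017 other protein-coding genes (0.048%). The element began a median of 32 bases after the stop (22 to 59), and the form shown for Hist1h1c was the commonest of 8, in 26 members. The other 17 members had no annotated bases to search. Hist1h1a, Hist1h2bc, Hist1h2bq, Hist1h2br, Hist2h2be and Hist2h3b had bases and no match.

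Many members stand head to head, an H2A gene beside an H2B gene with their starts 176 to 306 bases apart in 13 pairs. The stretch before the H2A gene is shown for 2 such pairs, one whose genes were both lower in responders and one whose genes parted. Both windows are the 250 bases before the start of the H2A gene in RefSeq, GRCm38.p6, on its strand. Each reaches past the GENCODE start of the facing H2B gene, at chr13:21787461 for Hist1h2bp and chr3:96221119 for Hist2h2be. Capitals mark the CCAAT box, the TATA box written as TATAAA and the octamer ATTTGCAT, on either strand.
Hist1h2an, facing Hist1h2bp, chr13:21787249-21787498, minus strand: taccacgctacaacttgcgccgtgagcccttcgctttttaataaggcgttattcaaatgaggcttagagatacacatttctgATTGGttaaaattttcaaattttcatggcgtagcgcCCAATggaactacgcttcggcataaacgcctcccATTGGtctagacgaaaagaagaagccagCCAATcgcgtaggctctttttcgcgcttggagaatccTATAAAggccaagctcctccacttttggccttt
Hist2h2ac, facing Hist2h2be, chr3:96220881-96221130, minus strand: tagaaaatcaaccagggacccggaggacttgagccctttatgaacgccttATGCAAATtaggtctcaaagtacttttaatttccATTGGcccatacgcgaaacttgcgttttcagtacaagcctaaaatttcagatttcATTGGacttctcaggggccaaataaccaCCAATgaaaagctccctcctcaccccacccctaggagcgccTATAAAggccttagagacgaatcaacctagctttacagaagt
Among the 61 members matched to a RefSeq promoter, CCAAT on either strand was present in 82.0%, against 37.4% of 26964 other genes. It was in all 6 H1, 17 H2A and 16 H2B windows and in 3 of 12 H4 windows. TATAAA was present in 47.5% of members and 14.3% of other genes. The octamer was in 7 of 17 H2A and 7 of 16 H2B windows and in no H1, H3 or H4 window, against 1.77% of other genes. The windows of a head-to-head pair overlap, so the same match can count for both its H2A and its H2B gene. AAACACA, searched in the same way, was in 5 of 6 H1 windows and 7.19% of other genes. These matches describe the letters of the windows and nothing more.

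Summed over the 69 genes, the histone level averaged 3834 ± 657 CPM in the controls (SD, n = 5). Non-responders averaged 3264 ± 799 CPM (n = 6), stable tumours 1727 ± 285 CPM (n = 6) and responders 1060 ± 343 CPM (n = 8). CPM are counts per M counts of a library scaled by trimmed mean of M-values factors. The controls lay at 4458, 2886, 3431, 4124 and 4272 CPM. The lowest, median and highest non-responder had 2494, 2956 and 4598 CPM. For stable tumours these were 1233, 1744 and 2046 CPM, and for responders 703, 946 and 1747 CPM. Every stable tumour and every responder lay below every non-responder and every control. Responders and stable tumours overlapped, with 6 of 8 responders below all stable tumours, and non-responders overlapped the controls. The sum carries no test, because the members were chosen with earlier results of these data known.

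Mki67 lay at 424, 358, 424, 555 and 481 CPM in the controls. It ranged from 226 to 568 CPM in non-responders (median 406), from 128 to 277 CPM in stable tumours (median 225) and from 120 to 247 CPM in responders (median 220). Non-responders overlapped both other outcome groups, and responders and stable tumours covered much the same range. Mki67 fell by 1.03 (log2, SE 0.20, adjusted p = 0.000473 in edgeR) in responders and by 0.90 (SE 0.22, adjusted p = 0.00987) in stable tumours against non-responders. Its difference between responders and stable tumours was -0.14 (SE 0.21, adjusted p = 0.62).

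The summed histone level divided by Mki67 was 8.60 ± 1.19 in controls, 8.55 ± 2.18 in non-responders and 8.14 ± 1.17 in stable tumours (SD). In responders it was 5.66 ± 2.52. The responders lay at a low of 3.55, a median of 5.03 and a high of 11.1, and 7 of 8 were below all non-responders, whose low was 6.78. Responder 5 held the high of 11.1, and without it the responder mean was 4.88. Divided by the summed level of 23 DNA replication genes with ordinary tails, the histone level was 3.14 ± 0.323 for controls, 3.41 ± 0.385 for non-responders, 2.97 ± 0.322 for stable tumours and 2.32 ± 0.444 for responders (SD).

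**Figure D1:**
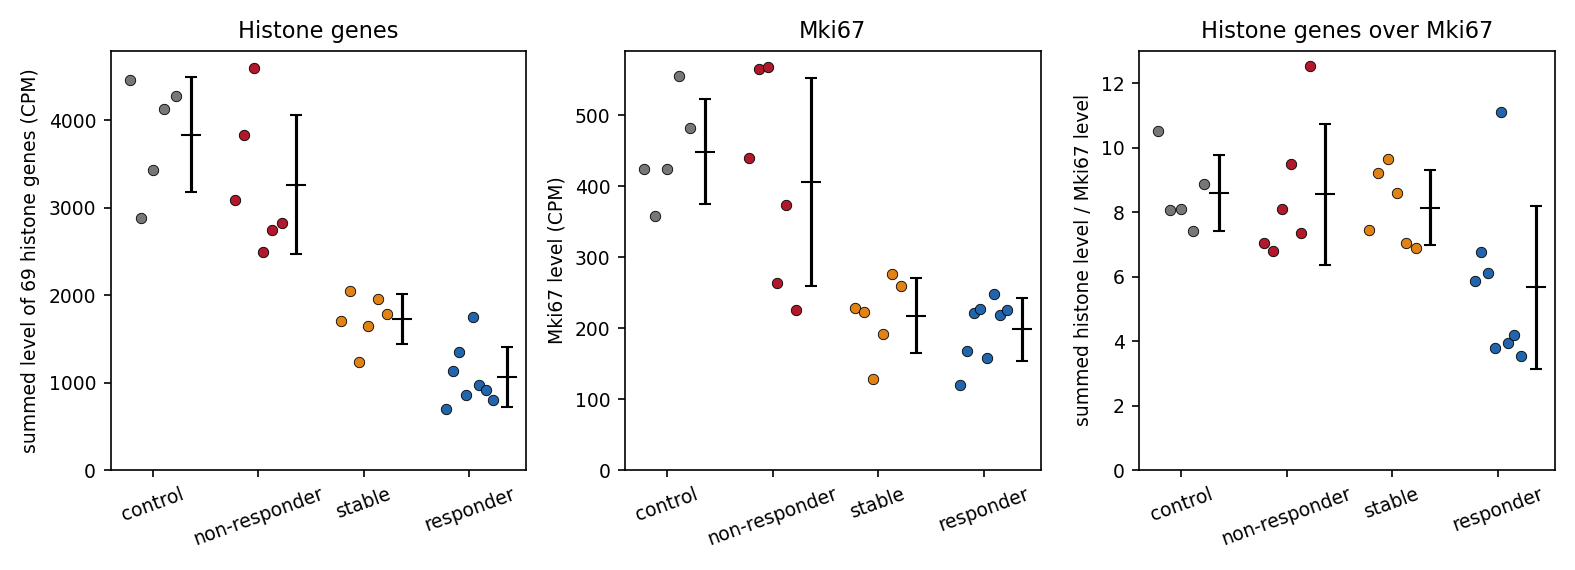
Summed level of the 69 histone genes (left, CPM), Mki67 (middle, CPM) and their ratio (right) in each of 25 tumours. Points are tumours, and bars show the mean and SD of each group; responders average 1060 CPM for the histones against 3264 CPM in non-responders, and 1 responder stands at a ratio of 11.1.

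Library composition differed in responders and, in one respect, in stable tumours. Total counts ran from 8.77 to 34.3 M per tumour. Protein-coding genes took 82.9 to 89.2% of counts in the 17 tumours of the other groups and 23.8 to 74.3% in 7 responders, while responder 5 had 87.0%. The 7SL genes, which encode an untailed RNA of the signal recognition particle, took 5.09 to 47.0% of counts in responders and at most 6.05% elsewhere. Mitochondrial ribosomal RNA took 0.845 ± 0.176% of counts for controls (SD), 0.930 ± 0.0974% for non-responders, 2.87 ± 2.23% for stable tumours and 5.42 ± 3.95% for responders. Every stable tumour and every responder lay above every non-responder and every control in this share, and its part in the histone levels was not tested. The labels name a total RNA kit and also polyA RNA, and which selection was made was not resolved. The 69 genes received 3152 to 38919 counts per responder library and 22139 to 150672 in the others. Histone counts were also taken as a share of protein-coding counts, which leaves 7SL and mitochondrial ribosomal RNA aside. The histone transcripts are themselves untailed, so this share can still depend on the RNA selection. It spanned 0.366 to 0.540% among controls and 0.325 to 0.549% among non-responders. Among stable tumours it spanned 0.145 to 0.249% and among responders 0.10 to 0.211%. Responder 5, with the composition of the other groups, had 0.211%, below every non-responder and inside the stable range. Responder 1, at a protein-coding share of 23.8%, had the lowest histone share. The library numbers run by group, so the order of processing and the group cannot be told apart.

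Within the 8 responders the histone share of protein-coding counts went up with the protein-coding share of the library (Pearson r 0.85, Spearman rho 0.93, and r 0.69 without the 2 tumours farthest from the median). Protein-coding counts enter both quantities, as the denominator of the first and the numerator of the second, so these values are a description. Against the summed level of the DNA replication genes, the summed histone level of responders had r 0.89 and rho 0.81 (r 0.61 without the 2 farthest). Against Mki67 it had r -0.15 and rho -0.07 (n = 8). The summed histone level over Mki67 had r 0.41 and rho 0.62 against the protein-coding share in responders (r 0.65 without the 2 farthest). In the 6 non-responders the histone level and Mki67 went together (r 0.87, rho 0.83).

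**Figure D2:**
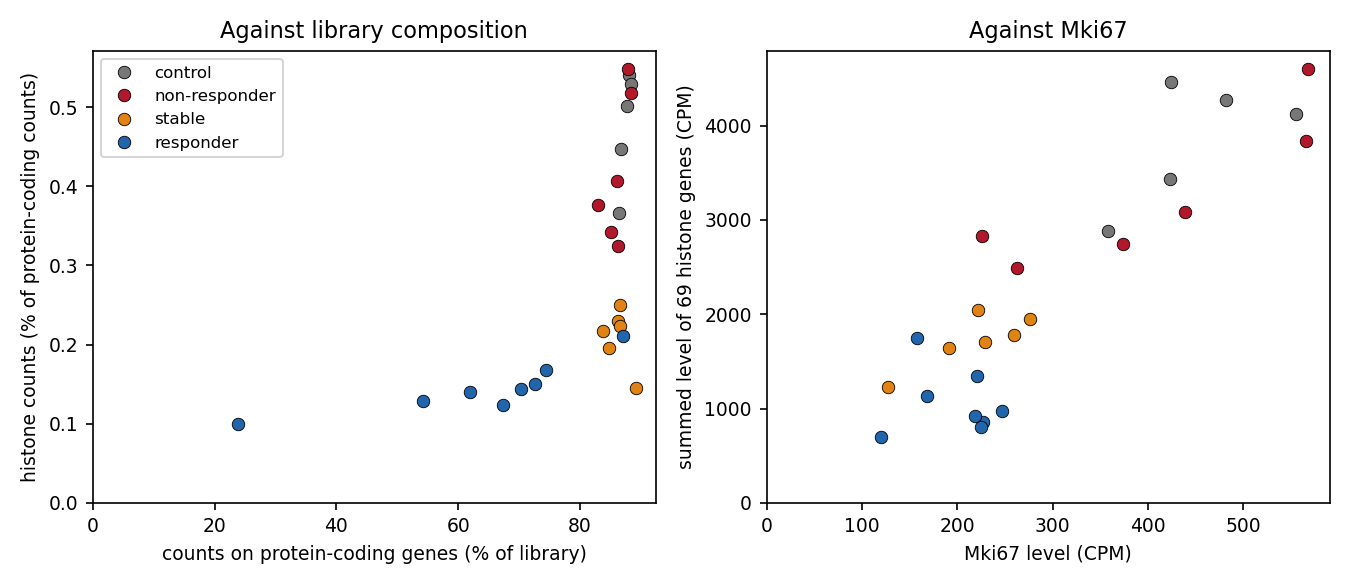
Left, histone counts as a percentage of protein-coding counts against the percentage of each library on protein-coding genes. Right, summed histone level (CPM) against Mki67 (CPM). Each point is a tumour coloured by group; 7 of 8 responders spread from 23.8 to 74.3% on the left, and on the right the stable tumours and responders sit at low values of both axes.

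Responders were compared with non-responders to ask which transcripts differ between tumours that shrank and tumours that grew under the same antibody. Of the 69 members 64 had enough counts to test, and 59 were lower in responders, with none higher. Over all 18031 genes tested, 23.8% were lower and 25.2% higher. The median log2 fold change of the 64 was -1.71, against 0.05 over all genes. All 6 H1, 16 of 17 H2A, 14 of 17 H2B, 11 of 12 H3 and 12 of 12 H4 genes tested fell, with medians from -1.59 for H1 to -1.80 for H2B. In 58 members every responder lay below every non-responder, which was so for 2.94% of all genes. Calls are from edgeR's quasi-likelihood test with Benjamini-Hochberg adjustment over all genes tested, at 0.05. A fit that held each library's protein-coding share as a covariate gave 55 lower members (4.97% of all genes), one that held Mki67 gave 56 (11.3%), and 38 were lower when a change of at least 2-fold was required (0.882%). In a bulk sample, fewer cycling cells and less histone RNA per cell cannot be told apart.

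The linker histones bind the DNA that enters and leaves the nucleosome. Hist1h1c (chr13:23738808-23740367) lay at 261, 138, 203, 216 and 231 CPM in the controls. The lowest, median and highest were 160, 187 and 223 CPM in non-responders, 135, 155 and 161 CPM in stable tumours and 64.2, 85.6 and 155 CPM in responders. Responders lay wholly below non-responders, while stable tumours just met them. Hist1h1c fell by 1.05 (log2, SE 0.16, adjusted p = 5.14e-05 in edgeR) in responders against non-responders, the least of the called members with a mean of at least 1 CPM. Its difference between stable tumours and non-responders was -0.32 (SE 0.17, adjusted p = 0.203 in edgeR). Hist1h1e, another linker gene, fell by 1.28 in responders and by 0.77 in stable tumours against non-responders.

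H2A and H2B form the dimers at the outer turns of the nucleosome. Hist1h2an (H2A, chr13:21786826-21787218) lay at 27.8, 14.5, 17.0, 18.7 and 23.1 CPM in the controls. It ranged from 8.97 to 26.1 CPM in non-responders (median 17.4), 2.84 to 9.06 CPM in stable tumours (median 5.86) and 2.60 to 5.42 CPM in responders (median 4.03). A single stable tumour reached the non-responder range, and no responder did. The fall was 2.12 (log2, SE 0.26, adjusted p = 9.86e-06 in edgeR) in responders and 1.55 (SE 0.28, adjusted p = 0.00248) in stable tumours against non-responders.

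Hist1h2bn (H2B, chr13:21754123-21754503) lay at 40.6, 27.5, 30.1, 41.0 and 38.9 CPM in the controls. It ranged from 21.8 to 43.4 CPM in non-responders (median 29.0), 8.52 to 21.6 CPM in stable tumours (median 16.6) and 4.46 to 14.0 CPM in responders (median 8.77). Neither stable tumours nor responders overlapped the non-responders. It fell by 1.80 (log2, SE 0.21, adjusted p = 8.48e-06 in edgeR) and by 0.92 (SE 0.22, adjusted p = 0.00842). Other H2B genes fell further: Hist1h2bk by 2.08, Hist1h2bm by 2.25 and Hist1h2bp by 2.22 in responders against non-responders. Hist1h2bm and Hist1h2bp had the lowest fold changes of the called members with a mean of at least 1 CPM.

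H3 and H4 make up the central tetramer. Hist1h3g (H3, chr13:23535422-23535951) lay at 52.4, 31.7, 36.8, 47.6 and 53.3 CPM in the controls. It ranged from 21.4 to 60.5 CPM in non-responders (median 28.5), 6.68 to 17.5 CPM in stable tumours (median 12.5) and 2.90 to 12.4 CPM in responders (median 7.75). Every stable tumour and every responder was below every non-responder. The fall was 2.20 (log2, SE 0.27, adjusted p = 9.53e-06 in edgeR) in responders and 1.49 (SE 0.28, adjusted p = 0.00302) in stable tumours, and Hist1h3b fell by 2.09 and 1.11.

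Hist1h4n (H4, chr13:21831767-21832196) lay at 172, 114, 137, 150 and 170 CPM in the controls. The lowest, median and highest were 89.2, 118 and 186 CPM in non-responders, 27.1, 58.8 and 69 CPM in stable tumours and 21.5, 29.3 and 57.7 CPM in responders. No stable tumour or responder reached the non-responder range. It fell by 1.84 (log2, SE 0.21, adjusted p = 8.48e-06 in edgeR) in responders and by 1.15 (SE 0.23, adjusted p = 0.00368) in stable tumours. Hist1h4c fell by 1.43 in responders and by 0.74 in stable tumours. The latter call was lost when non-responder 3 or stable tumour 3 was left out, with adjusted p up to 0.0629 in edgeR.

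**Figure D3:**
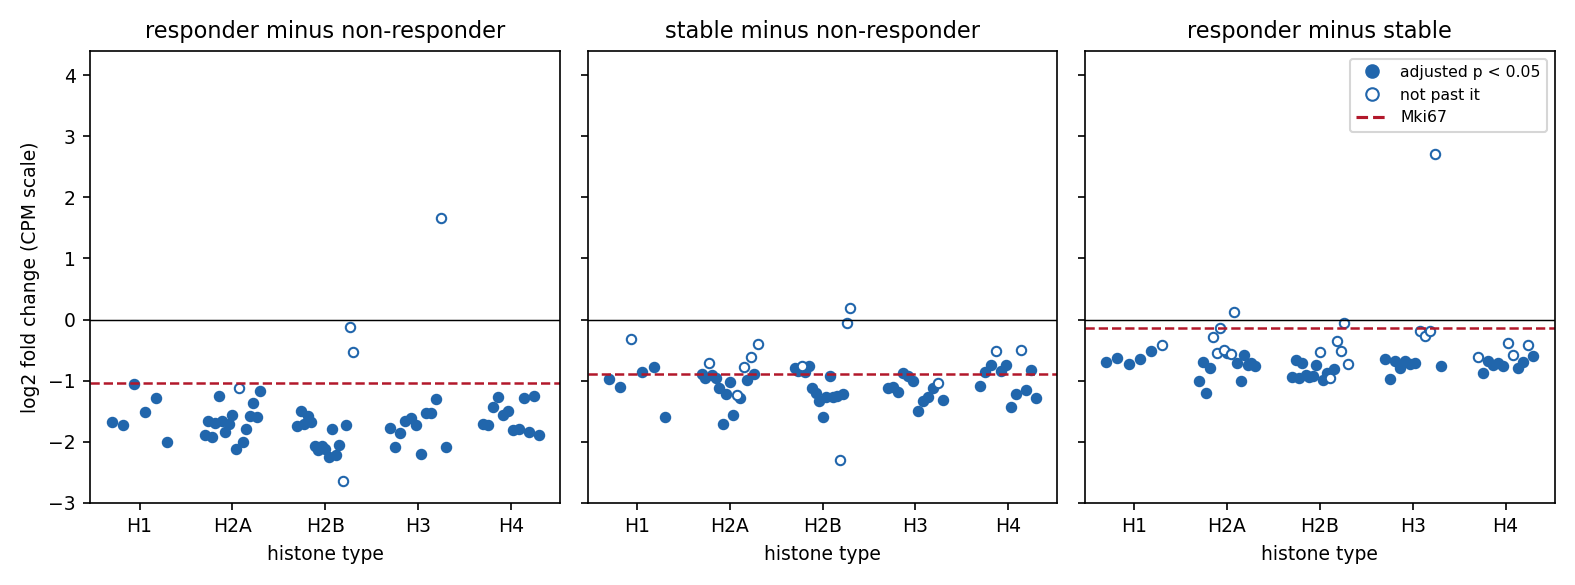
Log2 fold change of each of the 64 tested members, grouped by histone type, for the comparisons between outcome groups. Each point is a gene, filled where its adjusted p in edgeR is under 0.05, and the dashed line marks the fold change of Mki67; in responders against non-responders 61 of 64 members lie below the Mki67 value of -1.03.

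The histone members were set against Mki67 gene by gene. In responders against non-responders 61 of 64 members had a lower fold change than Mki67, as did 6.03% of all genes tested. In stable tumours against non-responders 40 of 64 did, against 7.18% of all genes. In responders against stable tumours 60 of 64 did, against 40.6% of all genes. Mki67 is a single gene, and the mitosis genes counted below had lower medians than it in both outcome groups against non-responders. In stable tumours against non-responders their median was also lower than that of the histone members. Responder 5, with a protein-coding share of 87.0%, had a summed histone level over Mki67 of 11.1, above every stable tumour and every control. The part of library composition in these differences from Mki67 was not tested. For the member of each type with the highest mean RPKM, the log2 ratio to Mki67 was also tested by exact two-sided permutation over tumours, with 20 tests in the family and 0.5 CPM added to each value. For H2A that member was Hist1h2ao, whose mean of 0.456 CPM was below the 0.5 CPM added. Its tests could therefore not show a fall in H2A. Of the 20 tests 4 had an adjusted p under 0.05. Each of the 4 calls was lost in 9 to 17 of 25 repeats that left out 1 tumour. The ratio for Hist1h3g was lower in responders than in non-responders by 1.16 (exact p = 0.002, adjusted p = 0.040, lower than all non-responders in 7 of 8). That for Hist1h1c differed by -0.10 (exact p = 0.752, adjusted p = 0.856). Over those repeats the Hist1h3g difference lay between -1.31 and -1.08, with adjusted p up to 0.0738 in these exact tests.

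Stable tumours were compared with non-responders to ask what separates tumours that held their size from those that grew. Of the 64 members 51 were lower and none was higher, where 7.86% of all genes were lower and 7.08% higher. The median log2 fold change was -1.01, against -0.02 over all genes. By type, 5 of 6 H1, 12 of 17 H2A, 13 of 17 H2B, 11 of 12 H3 and 10 of 12 H4 genes fell. In 47 members every stable tumour lay below every non-responder (2.94% of all genes). With Mki67 as a covariate no member was called (0% of all genes), while 56 were when the protein-coding share took that place (9.17%). No member was called when a change of at least 2-fold was required (0.133% of all genes).

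Among the members named by the size of their change, Hist1h2ah (H2A) fell by 1.71 (log2, adjusted p = 0.0424 in edgeR) and the testis linker histone Hist1h1t by 1.6 (adjusted p = 0.0252 in edgeR). Both calls depended on single tumours. That of Hist1h2ah was lost in 11 fits that left out 1 tumour and that of Hist1h1t in 5, with adjusted p up to 0.123 and 0.0800 in edgeR. Hist1h4h fell by 0.75, a call that did not hold when non-responder 3 or stable tumour 3 was left out. Hist3h2a, from the small group on chromosome 11, differed by -0.41 (adjusted p = 0.0954 in edgeR), and was called when responder 1 or responder 5 was left out of the shared fit.

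Responders were compared with stable tumours, which had much the same Mki67 level. Of the 64 members 43 were lower and none was higher, where 17.8% of all genes were lower and 20.5% higher. The median log2 fold change was -0.69, against 0.01 over all genes. By type, 5 of 6 H1, 11 of 17 H2A, 11 of 17 H2B, 8 of 12 H3 and 8 of 12 H4 genes fell. No member had every responder below every stable tumour (0.288% of all genes did). The lowest fold changes among the called members were those of Hist1h2ad (-1.21, adjusted p = 0.00614 in edgeR) and Hist2h2aa1 (-1.01, adjusted p = 0.0104 in edgeR), both H2A genes. The highest were those of Hist1h1e (-0.51) and Hist1h2ak (-0.54).

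This comparison moved with library composition. Once the protein-coding share was a covariate no member was called (0% of all genes) and the members' median log2 fold change was -0.25. With its logarithm none was called (0.061%), at a median of -0.37. Without responders 1 and 4, which had the lowest protein-coding shares, 25 members were lower (8.01% of all genes), at a median of -0.58 with 2 fewer tumours. With Mki67 as a covariate 42 were lower (20.3%). Requiring a change of at least 2-fold left no member (0% of all genes). The protein-coding share was below that of every stable tumour in 7 of 8 responders, so its part in this difference and that of the outcome cannot be told apart.

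The isotype controls gave the level without anti-CTLA-4. In non-responders against controls 1 of 64 members was lower, where 3.29% of all genes were, and the median was -0.23 against 0.04 over all genes. Against controls 58 members were lower in stable tumours (19.6% of all genes) and 60 in responders (28.9%), with medians of -1.24 and -1.89. In stable tumours against controls the count was 15 with Mki67 as a covariate (4.78% of all genes) and 13 at 2-fold or more (2.99%). At that size no member was lower in non-responders against controls (0.0388%). These comparisons share control tumours with each other. The member higher in responders than in controls (36.1% of all genes were higher) was Hist2h3c1, an H3 gene with a mean of 0.0383 CPM in controls and 1.16 CPM in responders. It was listed at 0 in 2 responders and has near-identical copies among the H3 genes, so its own level is uncertain.

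Some histone genes can also make transcripts with a poly(A) tail, and 6 members listed as such (Hist1h1c, Hist1h2ac, Hist1h2bc, Hist1h4h, Hist2h2be and Hist4h4) were read apart. In responders against non-responders 5 of 6 were lower, with a median of -1.5, where 23.8% of all genes were lower. Hist1h2bc, an H2B gene, lay at 106, 95, 84.6, 93.0 and 85.9 CPM in the controls. It ranged from 56.3 to 95 CPM in non-responders (median 68.7), 32.9 to 48.1 CPM in stable tumours (median 38.0) and 13.4 to 41.8 CPM in responders (median 23.0). All stable tumours and responders lay below all non-responders. It fell by 1.5 in responders and by 0.84 in stable tumours, Hist1h2ac by 1.65 and 0.96, and Hist4h4 by 1.89 and 1.29. In stable tumours against non-responders 4 of 6 were lower (7.86% of all genes), and in responders against stable tumours 5 of 6 (17.8%). By sequence, 42 of 45 tested members with the stem-loop and 4 of 6 searched without it fell in responders against non-responders. Of all genes 23.8% were lower. Neither Hist1h2br, without the stem-loop, nor Hist1h2ao, with it, was called, and their counts were low or erratic, as described below.

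The exception was Hist2h2be (H2B, chr3:96221119-96223738), whose annotated transcript runs on for 2192 bases after the stop codon. That length does not set it apart, as Hist4h4 and Hist1h2ac, which fell, run on for 2515 and 2058 bases. Hist2h2be lay at 13.0, 11.5, 9.27, 12.4 and 11.1 CPM in the controls. It ranged from 4.78 to 7.75 CPM in non-responders (median 6.73), 5.12 to 7.46 CPM in stable tumours (median 6.20) and 2.23 to 8.40 CPM in responders (median 6.29). Every control was above every tumour that received the antibody against CTLA-4, and the outcome groups overlapped. The difference was -0.12 (log2, SE 0.19, adjusted p = 0.613 in edgeR) in responders and -0.06 (adjusted p = 0.886) in stable tumours against non-responders. In non-responders against controls it fell by 0.82 (SE 0.21, adjusted p = 0.00895 in edgeR), and it was the single member called there.

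Its head-to-head partner is Hist2h2ac (H2A, chr3:96220361-96220880), with starts 239 bases apart across the promoter printed above. Hist2h2ac lay at 66.4, 36.5, 41.2, 59.4 and 56.6 CPM in the controls. It ranged from 30.6 to 64.8 CPM in non-responders (median 36.5), 20.6 to 26.8 CPM in stable tumours (median 22.6) and 9.57 to 25.8 CPM in responders (median 11.6). Stable tumours and responders lay below every non-responder. Unlike its partner it followed the other members, with a log2 fold change of -1.6 in responders against non-responders.

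The ratio of Hist2h2be to Hist2h2ac averaged 0.228 ± 0.050 for controls (SD, n = 5), 0.158 ± 0.042 for non-responders (n = 6), 0.270 ± 0.039 for stable tumours (n = 6) and 0.443 ± 0.150 for responders (n = 8). All 8 responders and all 6 stable tumours were above all non-responders. The log2 ratio was higher by 1.44 in responders (exact two-sided permutation p = 0.000333, adjusted p = 0.002 over 6 comparisons) and by 0.79 in stable tumours (exact p = 0.00216, adjusted p = 0.00649) than in non-responders. It was higher by 0.65 in responders than in stable tumours (exact p = 0.00966, adjusted p = 0.0145). Against controls the log2 ratio differed by -0.50 for non-responders (exact p = 0.039, adjusted p = 0.0468), by 0.29 for stable tumours (exact p = 0.0801, adjusted p = 0.0801) and by 0.94 for responders (exact p = 0.00389, adjusted p = 0.00777). The mean ratio was also lower in non-responders than in controls, and stable tumours overlapped the controls. Both the pair and the test were chosen after the values had been seen. The pair was taken up because Hist2h2be kept its level while Hist2h2ac fell, so a higher ratio in responders followed from that choice. The adjustment covers the 6 comparisons and not the choice among 13 pairs, so no conclusion is drawn from these p-values. Leaving out each tumour in turn kept the first difference between 1.34 and 1.54. In the other pair shown, Hist1h2an and Hist1h2bp fell by 2.12 and 2.22.

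**Figure D4:**
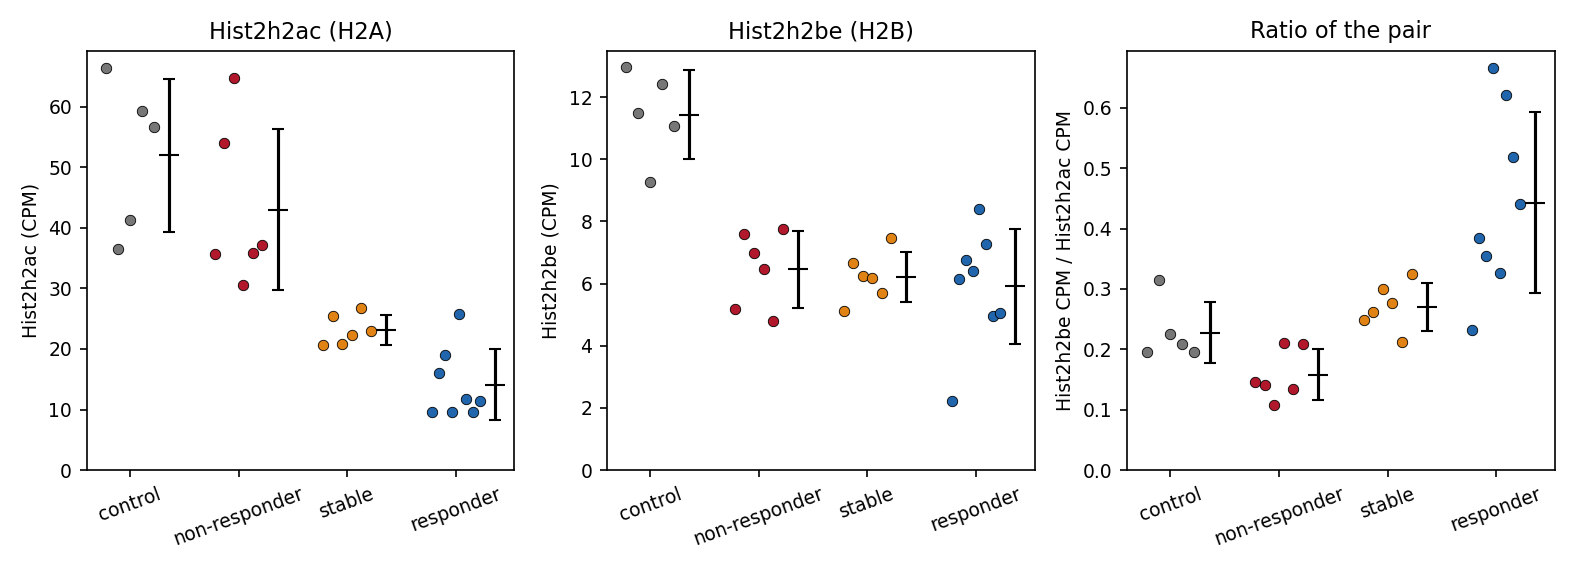
Level (CPM) of the head-to-head genes Hist2h2ac and Hist2h2be and their ratio in each tumour. Points are tumours and bars the mean and SD; the ratio averages 0.158 in non-responders and 0.443 in responders.

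The germline members are known from testis. Hist1h2aa and Hist1h2ba had 5 and 24 counts in all 25 tumours and were not tested, as were Hist1h2aj, Hist1h2al and Hist1h4m. By the deposited RPKM, Hist1h2ba had a mean of 14.8 and Hist1h4m of 107, so the levels of these genes are uncertain. Hist1h2aa had a mean of 0.0776 RPKM. Hist1h1t fell by 2.01 (log2, adjusted p = 0.00117 in edgeR) in responders against non-responders, from a mean of 2.53 to 0.627 CPM. The other members not called in that comparison, beside Hist2h2be, were Hist1h2ao, Hist1h2br, Hist2h3c1 and Hist3h2ba. Their counts were low or erratic between tumours of 1 group: Hist1h2br ran from 0.414 to 35.1 CPM in controls and Hist1h2ao from 0 to 1.95 CPM. The deposited RPKM differed for Hist1h2br and Hist1h2ao. Hist1h2br had 209 to 290 RPKM in controls, 147 to 359 in non-responders and 24.9 to 80.9 in responders. Hist1h2ao had 361 to 553, 257 to 591 and 70.7 to 151 RPKM in the same groups. By RPKM every responder lay below every non-responder for both genes, so the missing calls do not show that they held their level. Hist3h2ba overlapped between these groups by RPKM as well as by CPM, with 0.666 to 3.22 RPKM in non-responders and 0.308 to 2.56 in responders.

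Genes that work with the histones were counted in the same fits, where 23.8% of all genes were lower in responders and 7.86% in stable tumours against non-responders, and 17.8% in responders against stable tumours. Of 23 DNA replication genes with ordinary tails, all were lower in responders against non-responders (median -1.07), 20 were in stable tumours against non-responders (median -0.70) and 8 in responders against stable tumours (median -0.35). Rrm1, a subunit of ribonucleotide reductase, fell by 1.30 and 0.83 in the first 2 of these. Pcna, the sliding clamp of DNA polymerase, fell by 1.24 in responders against non-responders and by 0.85 against stable tumours. Of 14 mitosis genes, all were lower in both outcome groups against non-responders (medians -1.40 and -1.08) and 1 was in responders against stable tumours (median -0.32). Top2a, which untangles replicated DNA, fell by 1.2 and 0.74 against non-responders.

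Of 19 factors that transcribe or process histone RNA, 9 were lower and 2 higher in responders against non-responders (median -0.27), and 1 was lower in stable tumours. Slbp fell by 0.46 (log2, adjusted p = 0.000876 in edgeR) and Npat by 0.28 (adjusted p = 0.0124 in edgeR) in responders against non-responders. Slbp fell by 0.32 against stable tumours, a call that was lost without stable tumour 4 (adjusted p = 0.0503 in edgeR). Of 10 histone chaperones, which carry histones to DNA, 6 were lower and 1 higher in responders against non-responders. Of 11 other histone genes, listed as replication-independent, 7 were lower in responders against non-responders (median -0.67). Among them the linker histone H1f0 fell by 1.27, and H3f3a and H3f3b, both encoding H3.3, fell by 1.17 and 0.67. Structural RNAs without poly(A) went the other way, with 8 of 16 higher and none lower in responders against non-responders (median 1.19) and 13 of 16 higher against stable tumours (median 2.18), where 25.2% and 20.5% of all genes were higher.

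**Figure D5:**
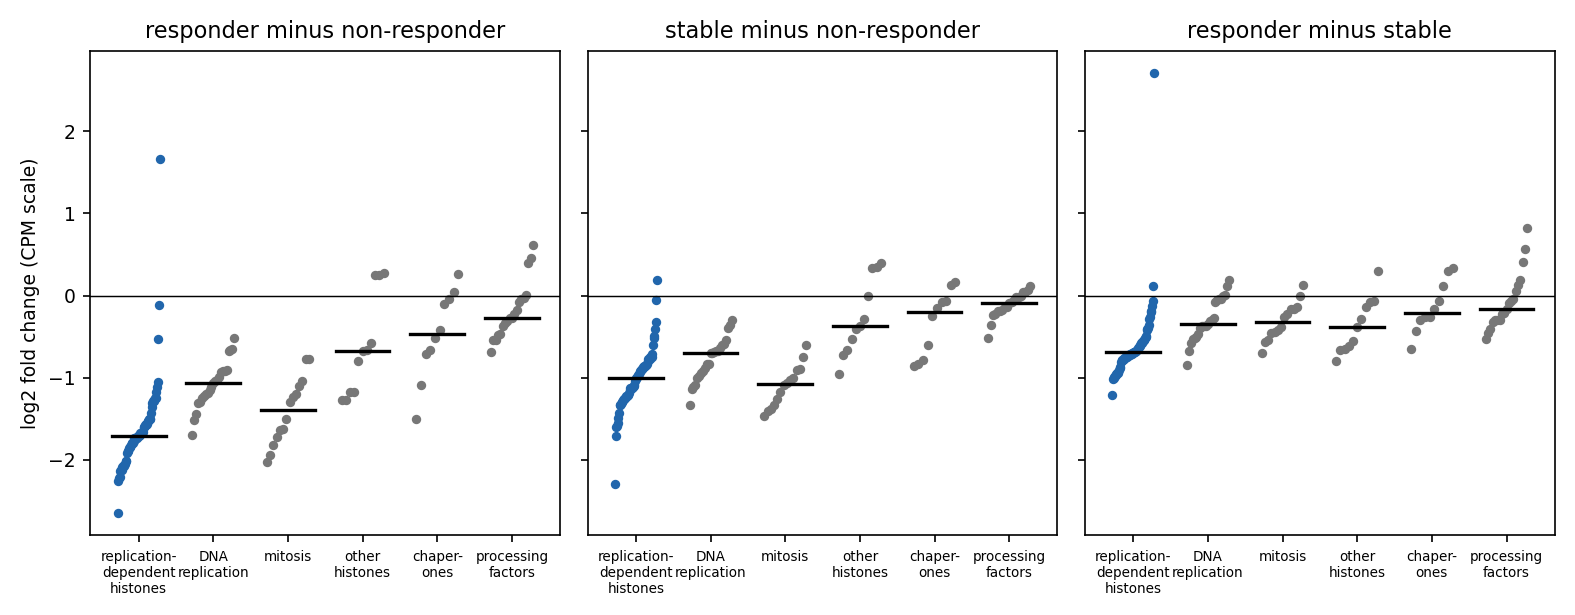
Log2 fold changes of the genes of each list in responders against non-responders, stable tumours against non-responders and responders against stable tumours. Points are genes and the bar is the median; in responders against non-responders the 64 histone members lie at a median of -1.71 and the DNA replication genes at -1.07.

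Markers of cell types that the tumours could hold were read in the same fits. Over all genes, 23.8% were lower and 25.2% higher in responders, and 7.86% lower and 7.08% higher in stable tumours, against non-responders. All 7 melanocyte markers were lower in responders (median -4.26) and in stable tumours than in non-responders, and their summed level ran from 10495 to 17096 CPM among controls, 722 to 13856 CPM among non-responders, 227 to 504 CPM among stable tumours and 303 to 722 CPM among responders. Mlana and Tyr were at 0 in 1 responder each, while the lowest Sox10 level in any tumour was 121 CPM. Of 6 T cell markers 2 were higher in responders, a share near that of all genes, and 2 in stable tumours, against non-responders. Their summed level ran from 7.64 to 22.7 CPM among controls, 19.2 to 161 CPM among non-responders, 119 to 186 CPM among stable tumours and 75.1 to 210 CPM among responders. Of 4 macrophage markers none was called in responders and 2 were higher in stable tumours against non-responders, and both endothelial markers were lower in responders. The remaining lists are given as mean summed levels in non-responders, stable tumours and responders, in that order. Fibroblast markers averaged 5504, 6405 and 6192 CPM, and B and plasma cell markers 19.0, 79.3 and 38.9 CPM. Keratinocyte markers averaged 43.2, 29.9 and 202 CPM, with 0.0898 to 558 CPM among responders. Skeletal muscle markers averaged 269, 221 and 121 CPM. The part of these cell types in the histone levels was not tested.

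Near-identical coding sequences limit what single rows can show. Coding sequences were 77.6 to 100% identical among H2A genes of equal length, 82.9 to 99.0% among H2B, 93.7 to 99.8% among H3 and 85.3 to 100% among H4. Hist1h2ao is identical to Hist1h2ap, Hist2h2aa1 to Hist2h2aa2 and Hist1h4m to Hist1h4n, so their reads could be split either way. The deposited RPKM table, which is scaled by length, held 59 of the members. Of 55 with a mean of at least 1 CPM, 47 had a higher value there than their CPM per kilobase, with a median ratio of 2.44. Across the 25 tumours the 2 tables were related for these genes with a median Pearson r of 0.97 (0.70 to 1.00). Hist1h2ao had a mean of 282 RPKM but 0.456 CPM. Hist1h4m had 107 RPKM but 0.134 CPM, Hist1h2ba 14.8 RPKM but 0.0439 CPM and Hist1h2br 141 RPKM but 8.78 CPM. The summed RPKM averaged 11381 ± 2071 for controls, 9582 ± 2544 for non-responders, 4316 ± 606 for stable tumours and 2866 ± 672 for responders (SD), in the same order as the summed CPM. In limma on log2(RPKM + 1), 56 of 58 members were lower in responders against non-responders (27.6% of all genes), 55 in stable tumours against non-responders (13.9%) and 34 in responders against stable tumours (16.2%).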

How the data were processed

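RNA was sequenced from 25 tumours in 4 groups, each tumour from a separate mouse by its labels. Estimated counts for 55450 genes were deposited, of which 5.64% of values (81.8% of histone values) were not whole, and the authors also deposited RPKM in 19522 rows. The submitters' processing notes name bcl2fastq 2.17, Trimmomatic, STAR 2.5.1, RSEM 1.2.22 and mm10. Gene IDs were matched to GENCODE release 21 for GRCm38. Estimated counts were rounded, filtered by expression, scaled by trimmed mean of M-values factors and fitted with 4 group means by edgeR 4.0.16 (robust quasi-likelihood, R 4.3.3), with two-sided p-values adjusted over all 18031 genes at 0.05. A prior count of 2 entered only log2 CPM used as a covariate or length trend. Total counts of 8.77 to 34.3 M set the precision.

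Alternatives were DESeq2 1.42.0, limma 3.58.1 on log2(RPKM + 1), other normalizations and filters, covariates, a 2-fold requirement and leaving out each tumour. Scripts were tested on simulated data. Named genes were Mki67, the 2 members of each histone type with the highest mean RPKM, the 2 called members with the highest and the 2 with the lowest fold change per comparison at a mean of at least 1 CPM, all germline and polyadenylated-list members, 3 genes of each other list with the highest mean CPM, Slbp and Npat. Genes outside that rule, among them Hist2h2ac, were chosen after their values were seen. The members and lists were chosen with earlier results of these data known. Replicate numbers follow accession order and pair nothing. The 5 untreated mice were not analysed here.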

Additional observations from a re-analysis of the deposited data

Results flagged for a closer look

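Of 116 groups of values examined, 8 held a tumour far from the others of its group, where chance alone marks about 1 in 20. Responder 5 held 4 of them. Its histone level over Mki67 was 11.1, against a median of 5.03 in responders. Its Hist1h1c level was 155 CPM (median 85.6), its Hist1h4c level 69.9 CPM (median 27.7) and its Slbp level 32.9 CPM (median 24.4). This tumour also had the highest protein-coding share of the responders, 87.0%. In it 59 of 64 members lay below every non-responder, as did 17.8% of all genes tested.

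The remaining values came from other tumours. Stable tumour 3 had 27.1 CPM of Hist1h4n (median 58.8). Non-responder 3 had 95 CPM of Hist1h2bc (median 68.7) and 42.8 CPM of Npat (median 35.2). Responder 1, with the lowest protein-coding share, had 21.9 CPM of Npat (median 30.3).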

How the results depend on the processing

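No paired analysis was possible because the replicate numbers follow accession order and the labels pair no tumours. Members called under the alternatives stayed within 1.5 times the main count except as follows, and the cause was not tested. Requiring a change of at least 2-fold left 38 members in responders and 0 in stable tumours against non-responders, 0 in responders against stable tumours, 0 in non-responders against controls and 13 in stable tumours against controls. Mki67 as a covariate left 0 in stable tumours against non-responders and 15 against controls. In responders against stable tumours, the protein-coding share as a covariate left 0, its logarithm 0, and leaving out the 2 responders of lowest share 25. In non-responders against controls 2 of 63 members were called with only those groups in the fit. In the main fit of that comparison 3.29% of all genes were lower, so these counts do not set the members apart.

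Leaving out each tumour in turn gave 59 to 60 members in responders and 41 to 55 in stable tumours against non-responders. It gave 35 to 51 in responders against stable tumours. Against controls it gave 1 to 2 in non-responders, 57 to 59 in stable tumours and 61 to 62 in responders. Shares over all genes, given above for the main fit, were not taken for the fits that left out a tumour. The summed level then ran from 3678 to 4071 CPM for controls, 2997 to 3418 for non-responders, 1664 to 1826 for stable tumours and 962 to 1111 for responders, and its ratio to Mki67 from 8.12 to 8.89, 7.75 to 8.90, 7.84 to 8.39 and 4.88 to 5.96.

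Per M protein-coding counts the summed level was 4768 for controls, 4194 for non-responders, 2102 for stable tumours and 1458 for responders. Without the germline and polyadenylated-list members it was 1423 CPM in stable tumours, and the ratio to Mki67 was 7.35 in controls and 6.66 in stable tumours. Signs reversed for uncalled values of 2 genes. Mki67 in responders against stable tumours became 0.070 with the protein-coding share, 0.053 with its logarithm and 0.021 in limma on RPKM. Hist2h2be in responders against non-responders became 0.43 with the share and 0.29 with its logarithm, and in stable tumours 0.048 with Mki67 as a covariate and 0.0036 without non-responder 6, in a range of -0.13 to 0.0036 over the tumours left out. For named genes, 2470 of the values under alternatives kept their direction and call, 190 lost the call, 9 gained it and 7 reversed. The 2 responders of lowest share, at 3152 and 6138 histone counts, limit what depth can show for single genes.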
